A study of Mus musculus with 8 samples.

Results

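Intercalated cells are the acid-base cells of the renal collecting duct. They were examined here in a single-cell RNA-seq pool of embryonic mouse kidneys in which Trim28, a transcriptional co-repressor, was deleted or left intact. A cell was counted as intercalated when it held at least 4 UMIs (unique molecular identifiers, each standing for 1 captured transcript) of Foxi1 and Atp6v1g3 together. Foxi1 is the forkhead transcription factor that specifies this cell type, and Atp6v1g3 encodes a subunit of its proton pump. Of 6495 cells assigned to a mouse, 141 passed, which is 2.17%. The 6495 cells came from the 21386 barcodes with the most gene UMIs, had 200 genes or more and no more than 10% of UMIs from mitochondrial genes, and at least 80% of their multiplexing tag counts, and at least 50 counts, came from 1 tag listed for a mouse. Because these levels chose the cells, Foxi1 and Atp6v1g3 are described below and were not tested.

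The pool held kidneys of 4 male mice at E17.5 per the labels. The study's methods name a later embryonic stage. Mice 1 and 2 are listed as ko and mice 3 and 4 as wt in the deposited tag list, and the label of the pool names Trim28 delta/delta (Trim28 Δ/Δ) and Trim28 f/f. That ko stands for Δ/Δ and wt for f/f was assumed, and every genotype value below rests on it. In the Δ/Δ mice the floxed alleles were recombined by a Cre that the Six2 promoter drives in nephron progenitors. The Trim28 f/f mice carried the same floxed alleles, and their Cre status is not stated. All 4 mice were captured together, so their cells shared 1 set of free RNA. The capture also held 3603 cells with 1 tag that is listed for no mouse. Their source is not stated, and the free RNA may come in part from them. With 2 mice per genotype an exact permutation test cannot give a p below 0.333. The series also holds bulk RNA-seq of 3 knockout and 3 control kidneys of newborn mice, not used here.

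Intercalated cells sit singly among the principal cells of the collecting duct and connecting tubule. Type A cells secrete protons through an apical vacuolar H+-ATPase and return bicarbonate to the blood through the anion exchanger Slc4a1 (AE1), whereas type B cells secrete bicarbonate through the apical exchanger Slc26a4 (pendrin). Principal cells reabsorb water and sodium. Collecting duct cells derive mainly from the ureteric bud, whereas the loop of Henle and the distal tubule derive from the Six2-expressing nephron progenitors. For comparison, 507 principal-type cells (at least 10 UMIs of Aqp2 and Fxyd4), 89 distal tubule-type cells (at least 4 UMIs of Slc12a3) and 413 loop of Henle-type cells (at least 10 UMIs of Slc12a1 and Umod) were taken from the same 6495 cells. Cells over the intercalated gate were left out of these 3 classes, and so were cells over more than 1 of the 3 gates, whereas intercalated cells over another gate were kept. These gate genes were likewise described and not tested in the comparisons that their gate defines.

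The shares of intercalated cells overlapped between the genotypes. Mouse 1 held 17 of 1168 cells (1.46%, 95% Clopper-Pearson interval 0.850 to 2.32%) and mouse 2 held 37 of 1289 (2.87%, 2.03 to 3.93%). Mouse 3 held 54 of 2490 (2.17%, 1.63 to 2.82%) and mouse 4 held 33 of 1548 (2.13%, 1.47 to 2.98%). The 2 Δ/Δ mice were the lowest and the highest, and the 2 f/f mice lay between them. The mean was 2.16% ± 1.001 (SD, n = 2) in Δ/Δ and 2.15% ± 0.0261 (SD, n = 2) in f/f mice (two-sided exact permutation test, p = 1). As a percent of intercalated and principal-type cells together, the 4 mice held 15.2, 23.3, 21.9 and 25.4% (exact permutation test, p = 0.667). The intervals cover counting error only.

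The intercalated cells were deeply sequenced, and many also carried transcripts of other tubule cells. Their median was 23738 UMIs, against 17152 over the 6495 cells, and it was 29839, 23024, 26872.5 and 20004 UMIs in mice 1 to 4. Of the 141 cells, 74 were also over the principal-type gate, 8 over the distal tubule-type gate and 3 over the loop of Henle-type gate. The doublet caller Scrublet, run on the 19273 barcodes that passed the cell filters, marked 22 of the 141 (15.6%; 5, 2, 11 and 4 in mice 1 to 4), compared with 5.88% of the 6495 cells and 7.69% of principal-type cells. The 74 cells over the principal-type gate had a median of 37250 UMIs and the other 67 had 16719. The share of mitochondrial UMIs was higher in intercalated cells than over all cells of the same mouse in all 4 mice, with medians of 5.23, 5.73, 4.74 and 7.95% against 4.07, 3.83, 2.89 and 3.48%. Leaving out those over another gate left 4, 14, 23 and 20 cells in mice 1 to 4 (0.342, 1.09, 0.924 and 1.29% of all cells), with mouse 4 then the highest. The part of doublets in the results was not tested, and several values are repeated below without the cells in question.

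Among the cells picked on the sum of both gate genes, Foxi1 was present in nearly every cell, whereas Atp6v1g3 was not. Foxi1 had at least 1 UMI in 138 of the 141 cells, with a lowest, median and highest count of 4, 11 and 25 in mouse 1, 0, 6 and 26 in mouse 2, 0, 8.5 and 46 in mouse 3, and 2, 9 and 17 in mouse 4. Atp6v1g3 ranged from 0 to 167 UMIs, with medians of 1, 4, 4 and 77 in mice 1 to 4. It was at 0 in 43 cells, at 1 to 19 in 35 and at 20 or more in 63. Because the gate sums both genes, each of the 43 cells had to hold at least 4 Foxi1 UMIs. The counts of both genes are therefore partly fixed by the gate and are a description only. Of the 43 cells without an Atp6v1g3 UMI, 33 were over the principal-type gate, and of the 63 cells with 20 or more, 21 were.

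Levels are given below as CPM, the UMIs of a gene summed over the cells of a class in 1 mouse and scaled to the same total for every class and mouse. Foxi1 stood at 317, 244, 373 and 309 CPM in the intercalated cells of mice 1 to 4 and at 9.96, 8.38, 4.89 and 7.11 CPM in principal-type cells. Atp6v1g3 stood at 788, 1400.3, 585 and 2546 CPM against 9.41, 5.94, 7.44 and 8.12 CPM. Free RNA, read from barcodes with few UMIs, held 10.4 CPM of Foxi1 and 74.8 CPM of Atp6v1g3. At the threshold, the 23 cells with 3 UMIs of the gate genes held 180 CPM of 7 other intercalated markers summed, the 6 cells with 4 UMIs held 271 and the 100 cells with 10 or more held 1614. The summed level of cells just inside the gate was nearer to that of cells just outside it than to that of cells far above it.

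**Figure D1:**
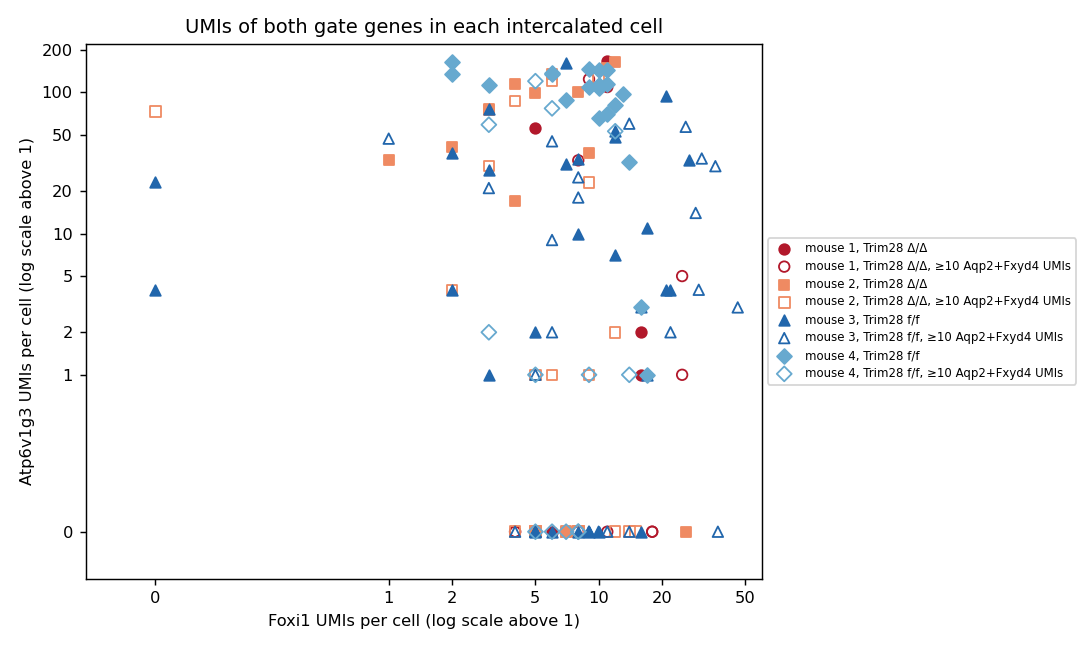
UMIs of Foxi1 (x axis) and Atp6v1g3 (y axis) in each of the 141 intercalated cells, both on a log scale above 1, by mouse (colour and shape); open symbols are the 74 cells with at least 10 UMIs of Aqp2 and Fxyd4. Foxi1 counts of the 4 mice overlap, and 43 cells lie on the line of 0 Atp6v1g3 UMIs, 33 of them open symbols.

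Summed per mouse, the cells held more transcripts of most other intercalated markers than principal-type cells did. Such sums do not show this for each cell. Against principal-type cells of the same mice, 823 of 10394 genes tested differed (7.92%), 514 higher (4.95%) and 309 lower (2.97%) in intercalated cells, by edgeR's quasi-likelihood test on UMIs summed per mouse with the mouse as a block and Benjamini-Hochberg adjustment over all genes tested, threshold 0.05. The members were picked by transcripts of their own, so these tests describe how far the picked cells differed in their other transcripts. The shares of 4.95% higher and 2.97% lower are the background for every list compared with principal-type cells below. For most alternative fits only the total called over all genes is given. List counts in those fits are a description only. Of 15 intercalated markers listed, 13 were tested and 12 of these were higher, with a median log2 difference of 3.002, compared with -0.0095 over all genes tested. The 2 that were not tested were the gate genes. The exception was Rhcg, an ammonia channel, at 161, 253, 203 and 315 CPM in intercalated and 179, 145, 182 and 204 CPM in principal-type cells (log2 difference 0.36, SE 0.14, adjusted p = 0.163).

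Among these markers, Atp6v0d2, a membrane-sector subunit of the proton pump, stood at 217, 310, 151 and 321 CPM in intercalated cells and between 5.08 and 8.38 CPM in principal-type cells, without overlap (log2 difference 5.14, SE 0.17, adjusted p = 7e-09). Hepacam2, an immunoglobulin-family adhesion protein, stood at 55.4, 72.4, 27.5 and 68.3 CPM against 0.425 to 1.52 CPM (5.72, SE 0.25, adjusted p = 3.67e-08). P2ry14, a receptor for UDP-glucose, stood at 96.5, 139, 43.2 and 127 CPM against 2.98 to 7.61 CPM (4.12, SE 0.17, adjusted p = 2.67e-08). For all 3 the levels in intercalated cells were lowest in mouse 3. Oxgr1, a receptor for alpha-ketoglutarate, showed the same direction at low levels, 15.8, 12.1, 14.6 and 50.7 CPM against 0 to 2.03 CPM (4.44, SE 0.41, adjusted p = 3.33e-05). Tfcp2l1, a transcription factor of the collecting duct, was already at 322 to 491 CPM in principal-type cells and reached 699 to 852 CPM in intercalated cells (0.87, SE 0.11, adjusted p = 0.00046).

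**Figure D2:**
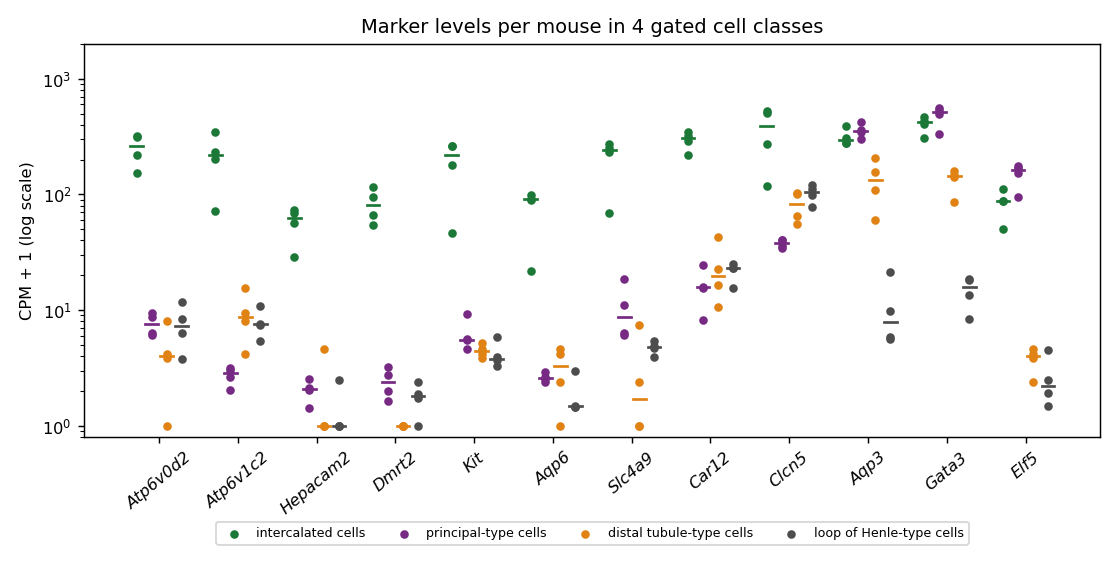
Levels of 12 marker genes as CPM + 1 on a log axis; each point is 1 mouse, bars are medians of 4 mice, and colours give the 4 gated cell classes. Atp6v0d2, Hepacam2, Dmrt2, Kit and Slc4a9 are separated from the other 3 classes in every mouse, whereas Aqp3 and Gata3 lie together in intercalated and principal-type cells.

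Subunits of the vacuolar H+-ATPase were among the genes with the largest differences. The pump consists of a cytosolic V1 sector that hydrolyses ATP and a membrane V0 sector that carries protons, and several subunits exist in a widespread and a tissue-restricted form. Of 25 pump genes listed, 21 were tested, 14 were higher in intercalated than in principal-type cells and 0 were lower (median log2 difference 1.001). In the V1 sector, Atp6v1b1, the renal B subunit, stood at 261, 376, 226 and 349 CPM against 37.1 to 49.8 CPM (2.71, SE 0.16, adjusted p = 4.25e-07). Atp6v1c2 stood at 203, 233, 71.3 and 345 CPM against 1.05 to 2.13 CPM (6.59, SE 0.26, adjusted p = 1.75e-08), the largest log2 difference among the pump genes tested. In the V0 sector, Atp6v0a4, the renal a subunit, stood at 191, 258, 229 and 356 CPM against 24.4 to 35.5 CPM (3.002, SE 0.17, adjusted p = 3.16e-07).

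The widespread forms of the same subunits did not pass the test. Atp6v1b2 stood at 58.6, 49.2, 123 and 61.7 CPM in intercalated and 63.6, 54.1, 81.6 and 44.7 CPM in principal-type cells (log2 difference 0.24, SE 0.15, adjusted p = 0.407). The log2 difference was 0.08 (SE 0.15) for Atp6v1c1, 0.12 (SE 0.09) for Atp6v1g1, 0.01 (SE 0.11) for Atp6v0d1, 0.38 (SE 0.16) for Atp6v0a1 and 0.67 (SE 0.21) for Atp6v0a2. Other subunits were higher by less than these restricted forms, with Atp6v1a at 1.84 (SE 0.18), Atp6v0c at 1.85 (SE 0.14), Atp6v1e1 at 1.81 (SE 0.14) and Atp6v1f at 0.52 (SE 0.11, adjusted p = 0.0112). Both accessory subunits were also higher, Atp6ap1 by 1.18 (SE 0.13) and Atp6ap2 by 0.90 (SE 0.11). Against loop of Henle-type cells, where 20.4% of 10608 genes tested differed and 10.8% were higher in intercalated cells, 13 of 21 pump genes were higher and 1 was lower. Against distal tubule-type cells, with 21.1% of 7813 genes tested differing and 10.0% higher, 8 of 20 were higher and 0 lower.

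**Figure D3:**
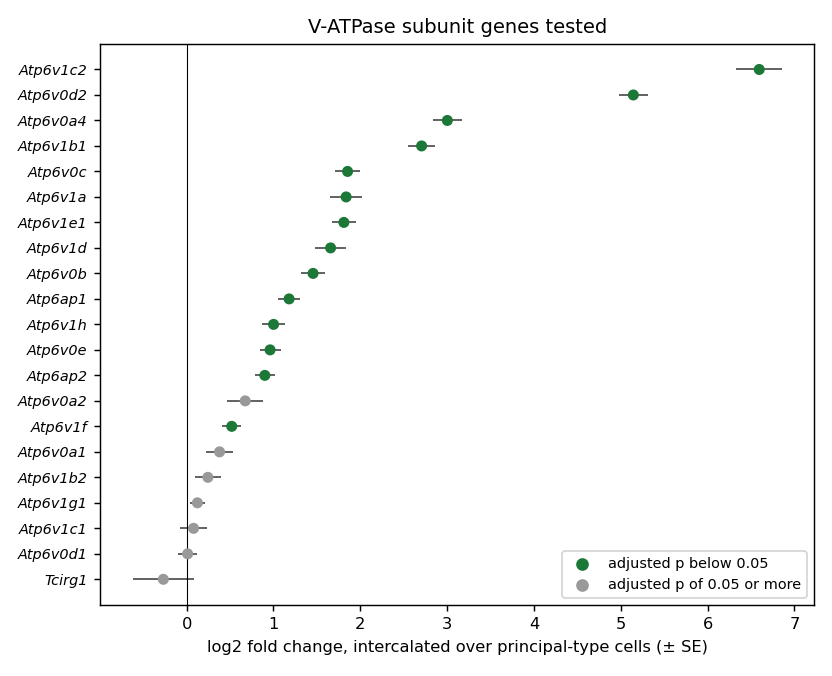
Log2 difference between intercalated and principal-type cells (x axis) for 21 subunits of the vacuolar H+-ATPase; points are edgeR estimates over 4 mice and bars are 1 SE. The 14 green points passed the test, from Atp6v1f at 0.52 to Atp6v1c2 at 6.59, and the 7 grey points lie between Tcirg1 at -0.27 and Atp6v0a2 at 0.67.

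Because Foxi1 is a forkhead factor, promoters were searched for a forkhead core, and 3 are shown that were chosen after the search. Atp6v1b1 and P2ry14 were the only intercalated markers in the promoter table with a match, and the gate gene Atp6v1g3 had none. The 7 letters GTAAACA, a forkhead core, were searched on both strands in the RefSeq windows of GRCm38.p6, which run from 250 bases before to 50 bases after a transcript's start. Capitals mark the reverse complement TGTTTAC. The windows are Atp6v1b1 at chr6:83742767-83743066 (+), P2ry14 at chr3:59131069-59131368 (-) and Atp6v1g3 at chr1:138273488-138273787 (+), each printed 5′ to 3′ on the strand of its gene.
Atp6v1b1: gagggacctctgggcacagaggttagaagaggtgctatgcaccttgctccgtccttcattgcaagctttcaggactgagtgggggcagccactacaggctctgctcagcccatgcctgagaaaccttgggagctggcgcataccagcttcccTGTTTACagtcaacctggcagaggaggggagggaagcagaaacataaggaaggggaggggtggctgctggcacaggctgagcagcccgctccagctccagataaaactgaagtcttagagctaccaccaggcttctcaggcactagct
P2ry14: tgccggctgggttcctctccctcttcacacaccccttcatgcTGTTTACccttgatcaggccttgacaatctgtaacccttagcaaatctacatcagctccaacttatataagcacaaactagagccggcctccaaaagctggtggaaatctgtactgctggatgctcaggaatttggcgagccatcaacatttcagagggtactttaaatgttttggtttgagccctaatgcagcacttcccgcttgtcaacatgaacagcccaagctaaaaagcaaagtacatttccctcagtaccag
Atp6v1g3: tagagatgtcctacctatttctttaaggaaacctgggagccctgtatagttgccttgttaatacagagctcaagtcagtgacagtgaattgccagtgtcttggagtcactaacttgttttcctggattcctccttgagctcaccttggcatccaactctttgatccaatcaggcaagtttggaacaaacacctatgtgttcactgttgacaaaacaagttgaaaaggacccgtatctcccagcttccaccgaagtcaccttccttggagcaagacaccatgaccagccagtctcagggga

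In Atp6v1b1 the match began 98 bases before the start (position -98), and in P2ry14 it began at -208 of the window shown. A second P2ry14 window, chr3:59131279-59131578, held the same genomic match at position 2. The Atp6v1g3 and Foxi1 windows held none. The letters occurred in 1199 of 32851 windows in the table (3.65%), in 3 of 13 windows of the intercalated markers (10 of 15 genes matched the table, and 2 of the 3 windows share 1 match), in 1 of 24 windows of pump genes and in 0 of 17 windows of the anion and bicarbonate transport list. A match is a description of letters only. In the GRCm38 annotation, Foxi1 lies at chr11:34204338-34208089 (-), Atp6v1g3 at chr1:138273738-138289462 (+) and Atp6v1b1 at chr6:83742990-83758855 (+).

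Several transport genes beyond the pump were higher in intercalated cells. Of 21 listed genes for anion and bicarbonate transport, 14 were tested against principal-type cells, 6 were higher and 0 lower. Over all genes tested, 4.95% were higher and 2.97% lower. Slc4a9, a bicarbonate transporter of the basolateral membrane of type B cells, stood at 250.04, 230.3, 67.9 and 272 CPM against 5.08 to 17.5 CPM (log2 difference 4.26, SE 0.23, adjusted p = 2.32e-07). Slc26a4 stood at 11.1, 9.29, 25.8 and 22.0 CPM against 0 to 1.02 CPM (5.44, SE 0.49, adjusted p = 2.53e-05). Both were higher in the intercalated cells of all 4 mice. The endosomal chloride/proton exchanger Clcn5 stood at 274, 501, 116 and 530.0 CPM against 33.2 to 39.6 CPM (3.02, SE 0.30, adjusted p = 5.17e-05). Bsnd (barttin) was at 33.2, 50.1, 69.0 and 44.1 CPM against 2.44 to 5.58 CPM (3.71, SE 0.23, adjusted p = 6.13e-07).

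Among 6 carbonic anhydrases tested against principal-type cells, 3 were higher and 1 was lower, beside 4.95 and 2.97% of all genes tested. Car12, a membrane-bound form, stood at 291, 218, 319 and 346 CPM against 7.19 to 23.6 CPM (log2 difference 4.19, SE 0.18, adjusted p = 2.67e-08). Car2, the cytosolic form, stood at 619, 1090.2, 219.9 and 1023 CPM against 120.1 to 209.6 CPM (1.90, SE 0.20, adjusted p = 0.000108) and was lowest in mouse 3. Car15 stood at 41.1, 2.79, 171 and 11.0 CPM in intercalated cells and at 1035 CPM over loop of Henle-type cells, so its difference of 2.36 from principal-type cells (SE 0.65, adjusted p = 0.0445) moved with a gene that loop of Henle-type cells express, and their part in it was not tested. Of 6 tested genes for ammonia and potassium handling, only Rhbg was higher, at 57.0, 111, 143 and 173 CPM against 10.5 to 37.6 CPM (2.18, SE 0.23, adjusted p = 9.21e-05).

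Type A and type B markers were both present. Of 7 type A markers, 5 were tested and all 5 were higher than in principal-type cells (median 5.52), and of 3 type B markers all 3 were higher (median 4.61). Kit, a receptor tyrosine kinase, stood at 179, 262, 45.4 and 260.05 CPM against 3.61 to 8.30 CPM (log2 difference 4.96, SE 0.27, adjusted p = 2.05e-07). Dmrt2, a transcription factor of type A cells, stood at 64.9, 116, 53.3 and 94.8 CPM against 0.638 to 2.21 CPM (5.90, SE 0.24, adjusted p = 1.75e-08). Aqp6, an intracellular anion-conducting aquaporin, stood at 20.6, 98.4, 89.2 and 90.4 CPM against 1.40 to 1.91 CPM (5.52, SE 0.25, adjusted p = 4.89e-08). Insrr, a pH-sensing receptor of type B cells, stood at 69.6, 61.3, 37.6 and 41.9 CPM against 1.02 to 4.98 CPM (4.61, SE 0.27, adjusted p = 3.54e-07). Slc4a1 and Slc26a7 did not pass the filter on low counts in this comparison.

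Cells with the exchangers Slc4a1 or Slc26a4 were few among the 141, whereas the subtype markers Aqp6 and Slc4a9 were found in more of them. With at least 2 UMIs taken as present, Slc4a1 was found in 16 cells (0, 5, 2 and 9 in mice 1 to 4), Slc26a4 in 9 (2, 1, 4 and 2) and both in 1. Aqp6 was found in 43 cells, 11 of them among the 16 with Slc4a1. The homeobox factor Hmx2 was found in 12 cells (3, 2, 1 and 6), and all 12 carried Slc4a9, 6 Slc26a4, 1 Aqp6 and 0 Slc4a1. The highest Hmx2 count in a cell was 46, 39, 2 and 49 UMIs in mice 1 to 4. Slc4a9 was found in 84 cells, including 12 of the 16 with Slc4a1, so in these embryonic cells it was not limited to those with Slc26a4. Counts this small do not show that Slc4a1 avoids Slc26a4 or Hmx2. They describe single cells of 4 mice and were chosen after their values were seen.

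The share of intercalated cells with a UMI of Slc4a1 was 11.8, 18.9, 3.70 and 45.5% in mice 1 to 4, compared with 1.08 to 3.07% of loop of Henle-type cells, which should lack it. After thinning to 6800 UMIs per cell it was 5.88, 16.2, 1.85 and 30.3%. The share with Slc26a4 or Slc4a9 was 70.6, 89.2, 70.4 and 72.7%, against 6.45 to 11.2% of loop of Henle-type cells, and 64.7, 64.9, 38.9 and 60.6% against 1.23 to 6.25% after thinning. Mouse 3 had the lowest thinned share of both. Neither passed a test between genotypes (exact permutation tests over 4 mice, two-sided, p = 1 and 0.667, and 1 and 0.333 after thinning, with 0.333 the smallest possible). The medians were 23738 UMIs in intercalated and 20276 in loop of Henle-type cells.

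Of 30 listed transcription factors, 22 were tested, 8 were higher in intercalated than in principal-type cells and 1 was lower (median log2 difference 0.0193). Without members over another gate, 5 of 21 were higher and 5 lower (median -0.427). Without the mouse as a block 2 of 22 were higher and 0 lower. Over all genes these fits called 1257 and 205 genes, in place of 823. After Dmrt2 and Tfcp2l1, the higher genes were Pparg, Ppargc1a, Esrra, Esrrg, Sox4 and Tfap2b, by 0.49 to 0.95, and Ppargc1a, a co-activator of mitochondrial genes, stood at 182, 171, 419 and 173 CPM against 91.9, 89.7, 315 and 107 CPM (0.71, SE 0.11, adjusted p = 0.00151). Esrra, Esrrg, Sox4 and Tfap2b each lost the call under at least 8 alternatives, and Tfap2b changed sign, to -0.08, without members that were over another gate. Gata3 stood at 408, 468, 309 and 431 CPM against 557, 533, 330 and 498 CPM (-0.25, SE 0.09, adjusted p = 0.143), while against loop of Henle-type cells it was higher by 4.86 (SE 0.21, adjusted p = 4.57e-07). Elf5, a factor of principal cells, was lower, at 111, 86.4, 48.8 and 85.9 CPM against 170, 153, 93.3 and 177 CPM (-0.87, SE 0.10, adjusted p = 0.000205).

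Genes of the Notch pathway, through which neighbouring collecting duct cells direct each other to principal or intercalated fate, included 3 ligands that were higher in intercalated cells. Of 26 listed genes 18 were tested, 3 were higher and 0 lower, where 4.95% of all genes tested were higher and 2.97% lower. Without members over another gate 1 of 15 tested was higher and 2 were lower, and at most 5% mitochondrial UMIs left 0 of 11. Over all genes these fits called 1257 and 65 genes, in place of 823, and their small list counts are a description only. Jag1 stood at 66.5, 52.0, 51.6 and 77.1 CPM against 25.9 to 35.4 CPM (log2 difference 1.03, SE 0.15, adjusted p = 0.00128). Dll1 stood at 34.8, 31.6, 12.9 and 34.2 CPM against 2.98 to 6.599 CPM (2.57, SE 0.27, adjusted p = 8e-05), and Dll4 at 18.99, 17.6, 6.73 and 8.82 CPM against 0.698 to 2.55 CPM (2.81, SE 0.48, adjusted p = 0.00365). Ligand levels in intercalated cells did not overlap those of principal-type cells for any of the 3. Notch1 was at -0.02 (SE 0.19), Notch2 at -0.48 (SE 0.18), Notch3 at -0.18 (SE 0.17) and the target Hes1 at -0.28 (SE 0.09), none past the test. Dll4 is also expressed by endothelial cells, whose markers are described below.

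Of 91 nuclear genes of oxidative phosphorylation tested, 59 were higher than in principal-type cells and 0 lower, with a median log2 difference of 0.44. Uqcrq, a subunit of complex III, stood at 593, 756, 538 and 973 CPM against 383, 415, 335 and 508 CPM (0.76, SE 0.09, adjusted p = 0.000242). Sdhd, a subunit of complex II, stood at 253, 258, 217 and 284 CPM against 135, 152, 143 and 159 CPM (0.75, SE 0.09, adjusted p = 0.000242). In both genes the intercalated cells were higher in every mouse. The 13 genes of the mitochondrial genome did not follow, with 0 passing the test and a median of 0.0822. Against distal tubule-type cells 78 of the 91 nuclear genes were lower and 0 higher (11.1% of all genes tested were lower), and against loop of Henle-type cells 14 were lower and 0 higher (9.59%). The count of 59 fell to 16 without mouse 2 and to 28 without mouse 4, and it was 0 when cells with more than 5% mitochondrial UMIs were left out, a limit that leaves 56 intercalated cells. It was 6 when the leading tag had to hold 90% of a cell's tag counts and 4 without the mouse as a block, with 0 lower in each of these 5 fits. Over all genes, the same fits called 321, 449, 65, 185 and 205 genes in the order given, in place of 823.

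Principal cell markers were detected in barcodes of the intercalated class, and whether mixed barcodes gave them was not tested. Aqp2, the vasopressin-regulated water channel, stood at 1268, 1578, 439 and 1562 CPM, compared with 858 to 3276 CPM in principal-type cells, 18.5 CPM over loop of Henle-type cells and 216 CPM in free RNA. In the 67 intercalated cells under the principal-type gate Aqp2 was at 34.3 CPM and Atp6v1g3 at 2933 CPM, whereas the 74 over that gate held 1522 and 467 CPM. Both sets rest on gate genes and are a description only. Aqp3, the basolateral water channel, stood at 280.1, 308, 386 and 275 CPM against 357, 303, 348 and 424 CPM (log2 difference -0.20, SE 0.12, adjusted p = 0.391). Of 9 principal cell markers tested, 4 were lower in intercalated cells (Aqp4, Avpr2, Scnn1g and Elf5, by 0.64 to 0.92) and 1 was higher (Kcnj1, a potassium channel that loop of Henle-type cells express at 135 CPM). Without members over another gate, 7 of 8 tested were lower (median -1.83), in a fit that called 1257 genes over all genes. That filter removes members by their Aqp2 and Fxyd4 UMIs, so the lower markers are partly fixed by it and are a description only. No marker was lower or higher without the mouse as a block (0 of 9) or at no more than 5% mitochondrial UMIs (0 of 8), and 1 of 8 was lower with a leading tag of 90%. Over all genes these fits called 205, 65 and 185 genes, in place of 823.

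Of 18 ureteric epithelium genes tested, 4 were lower and 1 higher than in principal-type cells, with a median log2 difference of -0.20. Leaving out members over another gate gave 9 lower and 0 higher, with a median of -0.61, and at no more than 30000 UMIs per barcode 7 were lower and 0 higher. Over all genes these fits called 1257 and 1391 genes. The first filter removes members by transcripts of the principal-type gate, so its count is partly fixed by the filter. None of the 18 passed the test without the mouse as a block or at no more than 5% mitochondrial UMIs, and 1 was lower with a leading tag of 90%. Over all genes these fits called 205, 65 and 185 genes, in place of 823. The keratins Krt8, Krt18 and Krt19 were lower by 0.52 (SE 0.10), 0.60 (SE 0.08) and 0.65 (SE 0.11) on the log2 scale. Wnt9b, the ureteric signal that induces nephrons, stood at 39.6, 66.9, 25.8 and 50.7 CPM against 136, 111, 38.3 and 98.0 CPM (-0.98, SE 0.17, adjusted p = 0.00435). Of 16 cell cycle genes 0 passed the test. Their summed level was 1326, 396, 453 and 281 CPM in the intercalated cells of mice 1 to 4 and 349, 715, 770.5 and 669 CPM in principal-type cells, so mouse 1 differed in direction from the other 3. Mki67 in mouse 1 stood at 152 against 34.9 CPM, and without the cells marked by Scrublet at 11.9 against 29.2 CPM.

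Outside the lists, the genes with the largest differences from principal-type cells were as follows. Cyp1a1, a detoxifying monooxygenase, stood at 11.1, 21.4, 7.86 and 29.8 CPM and was at 0 in the principal-type cells of all 4 mice (fitted log2 difference 7.94, which depends on the prior count). The transcript 2610016A17Rik stood at 45.9, 126, 62.3 and 139.9 CPM against 0.213 to 2.21 CPM (6.83, SE 0.33, adjusted p = 9.21e-08). Serpinb6b, a serine protease inhibitor, stood at 168, 202, 169 and 164 CPM against 1.02 to 5.53 CPM (5.59, SE 0.21, adjusted p = 1.22e-08). Its levels were even across the 4 mice. The other higher genes were Tmem163, Rcan2, Lsamp, Rorb, Zfp750, Klhdc8a and Cpsf4l, with log2 differences of 4.56 to 6.12. The lowest were Crisp1 at 7.91, 15.8, 2.24 and 15.4 CPM against 200.3, 90.4, 20.2 and 31.0 CPM (-2.80, SE 0.36, adjusted p = 0.000399), Gsdmc2, Pdlim1, the urea transporter gene Slc14a2 at -1.99 (SE 0.37, adjusted p = 0.00618), Glyat, S100a6, Pde1c, Sprr1a, Tcerg1l and Acsm2.

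Of 7779 genes tested against all 3 classes, 114 (1.47%) were higher in intercalated cells in each. Ordered by the smallest of their 3 log2 differences, the first were 2610016A17Rik (6.83), Dmrt2 (5.90), Hepacam2 (5.72), Serpinb6b (5.59), Aqp6 (5.28), Atp6v0d2 (5.04) and Kit (4.96), followed by Klhdc8a, Insrr and Syn2. Syn2, a synapsin of the vesicle surface, stood at 45.9, 80.8, 66.2 and 59.5 CPM against 2.09 to 3.32 CPM in principal-type cells.

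Trim28 showed no difference past the test between genotypes in intercalated cells. Its level was 82.3 and 96.6 CPM in Δ/Δ and 82.5 and 81.5 CPM in f/f mice (log2 difference of Δ/Δ from f/f 0.06, SE 0.23, edgeR adjusted p = 0.985). The sign of this small difference changed under several alternatives, and the levels of the genotypes overlapped over all members. Principal-type cells stood at 84.1 and 105 CPM against 82.1 and 101 CPM (0.02, SE 0.21, adjusted p = 0.998). In loop of Henle-type cells, by contrast, the 2 Δ/Δ mice were at 21.9 and 23.0 CPM and the 2 f/f mice at 78.6 and 94.4 CPM (-1.95, SE 0.21, adjusted p = 0.0275). Distal tubule-type cells stood at 18.3 and 32.4 CPM against 56.3 and 73.7 CPM (-1.43, SE 0.41, adjusted p = 0.389). Free RNA held 115 CPM of Trim28, and its part in the levels was not tested. Trim28 lies at chr7:12999114-13031035 (+) in GRCm38. Transcripts that a Cre-recombined allele may still yield are counted as Trim28 in these 3′ reads.

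The genotype difference in Trim28 differed between intercalated and loop of Henle-type cells. The interaction of class and genotype was 1.99 (SE 0.28, adjusted p = 0.0126), in a comparison in which 25 of 11540 genes were called (0.217%; 0.104% positive, 0.113% negative). The call was lost without mouse 1 (edgeR adjusted p = 0.0699), without mouse 2 (adjusted p = 0.13) and with DESeq2 (adjusted p = 0.0691), while the value stayed between 1.84 and 2.12 on leaving out a mouse. Between intercalated and distal tubule-type cells, where 0.670% of genes were called (0.447% positive, 0.223% negative), it was 1.42 (SE 0.41, adjusted p = 0.213) and between intercalated and principal-type cells -0.01 (SE 0.22, adjusted p = 1). The share of intercalated cells with a Trim28 UMI was 88.2, 83.8, 81.5 and 81.8% in mice 1 to 4, against 34.4, 42.9, 74.2 and 77.5% of loop of Henle-type cells. After thinning to 6800 UMIs per cell the shares were 17.6, 51.4, 35.2 and 27.3% against 7.53, 14.3, 35.6 and 46.2%, uneven among the intercalated cells of 4 mice. Without cells marked by Scrublet the levels in intercalated cells were 89.5, 95.3, 85.8 and 88.6 CPM. Without members over another gate they were 84.7, 70.0, 90.6 and 87.0 CPM, with both Δ/Δ mice below both f/f mice (log2 difference -0.30, SE 0.39). That setting left 4, 14, 23 and 20 cells in mice 1 to 4, so the level of mouse 1 rests on very few cells.

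**Figure D4:**
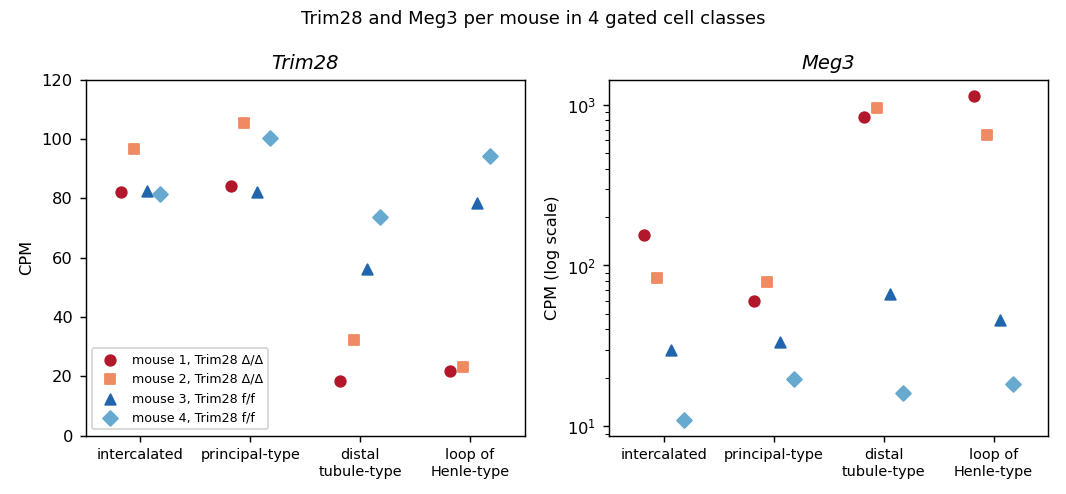
Levels of Trim28 (left, CPM on a linear axis) and Meg3 (right, CPM on a log axis) in 4 gated cell classes; each point is 1 mouse, with Trim28 Δ/Δ mice in reds and Trim28 f/f mice in blues. Trim28 lies between 81.5 and 96.6 CPM in the intercalated cells of all mice and is separated by genotype in loop of Henle-type cells, and Meg3 is separated by genotype in all 4 classes, most widely in loop of Henle-type and distal tubule-type cells.

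Across all genes, no gene passed the test between the genotypes in intercalated cells. Of 9017 genes tested 0 were called by edgeR, 518 had an unadjusted p under 0.05, and DESeq2 called 25. Neither were any called in principal-type cells (0 of 11167), compared with 9 of 6575 (0.137%; 0.122% higher and 0.0152% lower in Δ/Δ) in distal tubule-type and 26 of 10934 (0.238%; 0.210% higher and 0.0274% lower) in loop of Henle-type cells. Of the 26 genes called in loop of Henle-type cells, 13 were tested in intercalated cells and 0 were called. Their median absolute log2 difference was 0.648 there, against a median of 2.41 in loop of Henle-type cells, whose values chose them. Meg3, an imprinted long non-coding RNA, stood at 155 and 83.6 CPM in the intercalated cells of Δ/Δ mice and 29.7 and 11.0 CPM in f/f mice (2.35, SE 0.46, adjusted p = 0.350). The f/f and Δ/Δ levels did not overlap, but free RNA of the pool held 129 CPM of Meg3, and without the cells marked by Scrublet the levels were 5.97, 86.4, 22.3 and 9.26 CPM, with mouse 1 below both f/f mice. Loop of Henle-type cells held 1133 and 645 CPM against 45.8 and 18.3 CPM (4.72, SE 0.44, adjusted p = 0.0199), and the interaction was -2.32 (SE 0.28, adjusted p = 0.00648).

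No gene of the intercalated lists passed the test between genotypes. Of 13 intercalated markers tested between genotypes 0 were called (median log2 difference -0.11), of 20 pump genes 0 (-0.15), of 7 type A markers 0 (-0.23) and of 3 type B markers 0 (0.44), where the median over all genes tested was -0.0169. Atp6v0d2, at 217 and 310 CPM in Δ/Δ and 151 and 321 CPM in f/f mice, differed by 0.10 (SE 0.37, adjusted p = 0.982). Hmx2 was the most uneven, at 90.2 and 43.6 CPM against 1.12 and 204 CPM (-0.66, SE 1.30, adjusted p = 0.964), and Slc4a1 stood at 3.17 and 33.4 CPM against 2.24 and 57.3 CPM (-0.45, SE 1.21, adjusted p = 0.974). In both genes 1 f/f mouse was the lowest of the 4 and the other the highest. Without mouse 3, 4 of the 13 intercalated markers were lower in Δ/Δ and 0 higher, and without mouse 4, 5 were higher and 1 lower. Over all genes tested, 1.08% were higher and 0.977% lower without mouse 3, and 3.28% were higher and 5.23% lower without mouse 4. The 1 lower of 13 is near the share over all genes.

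Of the 10 genes ranked first by adjusted p between genotypes among those that moved alike in every pair of mice, 1 (Emcn) was on the endothelial list and none passed the test. That list holds only 6 genes, so genes that are not on it may also come from endothelial cells. Emcn (endomucin) stood at 131 and 78.9 CPM in Δ/Δ and 5.05 and 7.71 CPM in f/f mice (3.99, SE 0.40, adjusted p = 0.105). Sparcl1, Hpgd, Kctd12b, Gimap4, Slc9a3r2, Sparc, Ly6c1 and Gimap6 differed by 1.98 to 4.13 in the same direction, and their adjusted p lay between 0.182 and 0.268. Fxyd2, the gamma subunit of the sodium pump, stood at 454 and 320 CPM against 913 and 1009 CPM (-1.39, SE 0.23, adjusted p = 0.268). All 6 genes of the endothelial list were detected, and their summed level in intercalated cells was 468, 229, 69.0 and 67.2 CPM in mice 1 to 4, against 47.2 to 76.1 CPM in principal-type cells and 337 CPM in free RNA. At least 5 Emcn UMIs were found in 6 of the 141 cells (2, 2, 1 and 1). Without the cells marked by Scrublet, Emcn fell to 5.97, 3.97, 1.35 and 2.64 CPM. Genes outside that list fell too, Gimap4 to 2.98, 0.993, 4.05 and 1.32 CPM and Sparcl1 to 8.95, 4.96, 5.40 and 2.64 CPM. Sparc went to 68.6, 71.5, 35.1 and 41.0 CPM, and Fxyd2 stayed lower in Δ/Δ mice, at 230, 227, 700 and 800 CPM. Without members over another gate, however, Fxyd2 stood at 649, 949, 484 and 819 CPM, and its log2 difference changed sign to 0.25 (SE 0.41).

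In the comparison with principal-type cells, 3 of 5 tested genes of the endothelial list were higher in intercalated cells, Pecam1 by 2.06 (SE 0.40, adjusted p = 0.00739), Kdr by 1.89 (SE 0.48, adjusted p = 0.0298) and Cdh5 by 1.91 (SE 0.52, adjusted p = 0.044). Without members over another gate, 2 of 3 tested were higher, and without the mouse as a block 0 of 5 were. Over all genes these fits called 1257 and 205 genes, in place of 823. With members over another gate left out, Emcn stood at 0, 319, 14.3 and 16.8 CPM. Without cells marked by Scrublet, 1 of the list was tested and 0 were higher, while 12 of 12 intercalated markers tested, 15 of 21 pump genes and the 3 Notch ligands were, and 1 Notch gene was lower.

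Mouse 3, of the f/f genotype, stood apart from the other 3 in genes of hypoxia and glycolysis. The summed level of the 21 genes on that list was 7427, 7797, 16870 and 8479 CPM in the intercalated cells of mice 1 to 4, and 5834, 6734, 17528 and 7388 CPM in principal-type cells. Hk2, a hexokinase, stood at 26.9, 14.9, 401 and 20.9 CPM, and 35 of the 36 intercalated cells with at least 5 Hk2 UMIs came from mouse 3. Vegfa stood at 114, 119, 561 and 102 CPM and Elf3, an epithelial stress-responsive factor, at 128, 117, 553 and 83.7 CPM. In every one of these genes mouse 3 was the highest in both classes. Between intercalated and principal-type cells the list did not separate, with 1 gene higher (Ldha) and 1 lower (Ndrg1) of 19 tested.

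Several intercalated markers were lowest in mouse 3 as well. Kit, Car2, Clcn5, Slc4a9, Atp6v0d2 and Atp6v1c2 each had their lowest level of the 4 mice there, with Kit at 45.4 CPM against 179 to 262 CPM and Slc4a9 at 67.9 CPM against 230 to 272 CPM. Without the cells marked by Scrublet, Kit was at 31.7 CPM in mouse 3 and at 272 to 283 CPM in the others. Without mouse 3, 12 of 13 intercalated markers and 14 of 20 pump genes were higher than in principal-type cells, and the total of genes called was 617, with 4.23% of all genes higher. In the genotype comparison over all mice, the median log2 difference was -1.26 for hypoxia, 2.46 for endothelial, -1.71 for proximal tubule and 1.08 for cell cycle genes. None of these genes was called in that fit of all mice. This does not hold for the fits that leave 1 f/f mouse, which are given by their medians only. In the same order the medians were -0.109, 1.915, -2.34 and 1.59 without mouse 3. They were -1.92, 2.70, -0.26 and 0.74 without mouse 4. Either of the last 2 fits left 1 f/f mouse, which was assumed to vary like the others. What set mouse 3 apart was not tested.

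**Figure D5:**
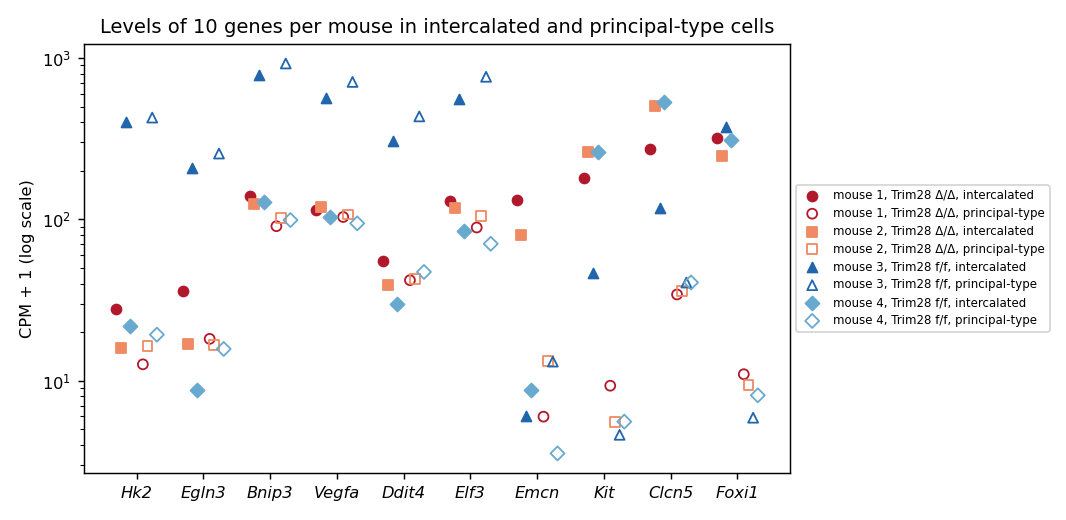
Levels of 10 genes as CPM + 1 on a log axis in intercalated cells (filled) and principal-type cells (open) of each mouse; colours and shapes mark the mice. Hk2, Egln3, Bnip3, Vegfa, Ddit4 and Elf3 are highest in mouse 3 in both classes, Emcn is high in the intercalated cells of mice 1 and 2 only, Kit and Clcn5 are lowest in mouse 3 among intercalated cells, and Foxi1 lies between 244 and 373 CPM in all mice.

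Calbindin-D9k (S100g), a calcium-binding protein of distal segments, was carried by few of the intercalated cells. At least 30 S100g UMIs were found in 26 of them, 3, 2, 15 and 6 in mice 1 to 4, and these held 90.3, 81.3, 96.8 and 97.6% of all S100g UMIs of the intercalated cells of their mouse. The other intercalated cells held at most 23 S100g UMIs each. S100g stood at 1081 and 557 CPM in the intercalated cells of Δ/Δ mice and 2851 and 7119 CPM in those of f/f mice (log2 difference -2.69, SE 0.47, adjusted p = 0.268). Without members over another gate the levels were 2964, 346, 1956 and 7928 CPM, with mouse 1 above mouse 3. Principal-type cells held 2544, 818, 2647 and 6597 CPM, and the interaction with them was -1.06 (SE 0.23, adjusted p = 0.226). Loop of Henle-type cells held 3031 and 950.4 CPM against 219.5 and 319 CPM (2.89, SE 0.48, adjusted p = 0.0756), and free RNA held 1526 CPM. Neither difference passed its own test, but the interaction did (-5.29, SE 0.30, adjusted p = 7.63e-06).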

How the data were processed

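Kidneys of 4 mice were pooled by multiplexing tags and sequenced with a Chromium 3′ kit after cold protease dissociation. The authors deposited UMI counts per gene and tag for 3921239 barcodes, unfiltered, made with Cell Ranger 6.0.0 per the submitters' processing notes, which also name R 4.1.0 and Seurat 4.0. Those notes name GRCm38 and mm10 without a role. Mice and genotypes came from the deposited tag list, and 0 columns of other samples were left out. Intercalated cells of the 4 mice summed 631890, 1076895, 1782262 and 907525 UMIs.

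UMI counts were summed per gated class and mouse. edgeR 4.0.16 (R 4.3.3) tested sums of genes that passed filterByExpr, with TMM factors, glmQLFit and glmQLFTest, Benjamini-Hochberg adjustment over all genes tested and a threshold of 0.05, and SE is the log2 difference divided by the square root of F. Comparisons between classes carried the mouse as a block, since the same animals gave both classes. The mouse was the replicate. Where nothing else is said, adjusted p-values come from edgeR. Shares were compared by exact permutation over mice with scipy 1.17.1, also after thinning to 6800 UMIs, and Scrublet ran through scanpy 1.11.5 at an expected rate of 0.15. Free RNA was the sum of 353040 barcodes with 10 to 100 UMIs. On simulated counts with 1 dispersion for all genes, 100% of genes changed 4-fold between intercalated and principal-type cells were called and 0.0697% of unchanged genes. Alternatives were DESeq2 1.42.0, RLE factors, other gates, cell filters and leaving out each mouse.

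Genes named were those of the lists, Trim28, the 10 genes ranked first by adjusted p between genotypes among those moving alike in every pair of mice, and the 10 largest differences in each direction from principal-type cells outside the lists that moved alike in all mice. S100g, on the distal tubule list, and Meg3 and Syn2 were singled out after their values were seen. The members and lists were chosen with earlier results of these data known. Aldoa and Ddit3 share a symbol with another feature and were left out of their lists. Promoters came from RefSeq windows of GRCm38.p6. Some genes of the anion transport and intercalated marker lists are counted but not reported by name here.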

Additional observations from a re-analysis of the deposited data

Results flagged for a closer look

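Genotype differences were tested for a difference between intercalated cells and another class by the interaction of class and genotype in edgeR, with adjustment over all genes. Between intercalated and loop of Henle-type cells the interaction, as a log2 value with a positive sign where Δ/Δ exceeded f/f more in intercalated cells, was 1.99 for Trim28, -2.32 for Meg3, -5.29 for S100g (carried by 26 of the intercalated cells), -1.59 for Fxyd2 and -6.74 for Sprr1a. Sprr1a stood at 6.33, 1.86, 15.7 and 5.51 CPM in the intercalated cells of mice 1 to 4 and at 47.3, 15.1, 0.489 and 1.37 CPM in loop of Henle-type cells. Among the other genes ranked first between genotypes it was 4.80 for Emcn, 4.99 for Gimap4, 4.87 for Sparcl1, 2.44 for Sparc, 2.91 for Slc9a3r2 and 4.10 for Kctd12b. Without the cells marked by Scrublet, Gimap4 went from 93.4, 36.2, 3.93 and 2.20 CPM in mice 1 to 4 to 2.98, 0.993, 4.05 and 1.32 CPM, and Sparcl1 from 55.4, 58.5, 6.73 and 8.82 CPM to 8.95, 4.96, 5.40 and 2.64 CPM.

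Between intercalated and distal tubule-type cells the interaction was -4.02 for S100g, -2.01 for Meg3, 7.50 for Emcn, 4.54 for Sparc, 10.16 for Gimap4, 6.94 for Sparcl1, 7.18 for Gimap6 and 3.19 for Slc9a3r2. Where a class held few UMIs of a gene these fitted values depend on the prior count. The distal tubule-type class held 89 cells, 13 of them in mouse 2 and 14 in mouse 4. The part of endothelial transcripts in the intercalated cells of mice 1 and 2 was not tested beyond the values without cells marked by Scrublet.

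Cells that the comparisons did not use also passed the intercalated gate. Among 3603 cells whose tag is not listed for a mouse, 64 (1.78%) passed, and among 9175 cells with no or mixed tags, 219 (2.39%) did, with 42.2 and 31.5% of these also over the principal-type gate.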

How the results depend on the processing

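Of 70 genes followed against principal-type cells, 30 lost or gained the call under some alternative and 6 of 1188 values changed sign. The pump, type A and type B genes reported as higher kept their direction, and Atp6v1f, Atp6v1h, Atp6ap1 and Atp6ap2 lost the call under at least 1 alternative. The 823 genes called became 1891 at 2 gate UMIs, 185 with a top tag of 90%, 65 at 5% mitochondrial UMIs, 1257 without members over another gate, 488 with DESeq2, 1337 with any gene of at least 1 count and 321 to 768 on leaving out a mouse. Without the replicate block, which pairs the classes of a mouse, 205 were called, all of them among the 823. No paired analysis was possible between genotypes because ko and wt mice share no number. At most 30000 UMIs per barcode, chosen after seeing the data, gave 1391.

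In the genotype comparison of intercalated cells, the 0 genes became 25 with DESeq2, 276 with any gene of at least 1 count and 0 to 859 on leaving out a mouse (0 without mouse 1, 5 without mouse 2). The interaction with principal-type cells gave 112 with any gene of at least 1 count and 0 to 119 without a mouse. With distal tubule-type cells it gave 14 with DESeq2, 156 with any gene and 10 to 135 without a mouse, and with loop of Henle-type cells 15, 232 and 2 to 170. Against distal tubule-type cells DESeq2 called 982, and against loop of Henle-type cells 1293 to 1888 were called without a mouse. The 141 members became 324, 67, 56, 61 and 86 under the 5 gates and cell filters named first, in the order 2 UMIs, tag, mitochondrial, other gates and 30000 UMIs. The share difference of Δ/Δ from f/f, 0.0127 percentage points, was -4.40 among members and principal-type cells and -0.695 to 0.720 without a mouse. The causes were not tested.

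Values that changed sign were, between genotypes, Sparcl1 at -0.30 (2 gate UMIs), Fxyd2 at 0.25 (without members over another gate) and Trim28 at -0.56 (2 gate UMIs), -0.025 (top tag of 60%), -0.0079 (5% mitochondrial UMIs), -0.30 (without members over another gate), -0.00066 (30000 UMIs) and -0.10 to 0.19 on leaving out a mouse (lowest without mouse 2). Against principal-type cells they were Tfap2b at -0.080 (without members over another gate) and -0.49 (30000 UMIs), Glyat at 1.14 and Acsm2 at 0.77 (2 gate UMIs), and Trim28 at 0.068 (top tag of 90%) and 0.094 (5% mitochondrial UMIs). The Trim28 interaction with principal-type cells was 0.022 with DESeq2, 0.011 with RLE, 0.010 with any gene of at least 1 count and -0.11 to 0.17 on leaving out a mouse (highest without mouse 3). In the simulated genotype comparison, with 1 dispersion for all genes, 88.7% of genes changed 4-fold and 100% of those changed 16-fold were called. In the simulated interaction with loop of Henle-type cells these shares were 67.3 and 90.6%. The simulated counts were drawn independently, without doublets or free RNA, so the shares need not hold for the real fits. In the real genotype comparison Emcn, with a log2 difference of 3.99, was not called.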

Other observations

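At least 10 UMIs of Mki67 or Top2a, markers of dividing cells, were found in 10 of the 141 cells, 3 of the 17 in mouse 1 and 1, 5 and 1 in mice 2 to 4. Of these 10, 8 were marked by Scrublet and the other 2 were over another gate.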
